A study of Mus musculus with 48 samples.

Results

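The angiopoietin and Tie receptor genes of the mouse were followed across RNA-seq libraries of 4 cell populations. The 6 genes are the ligands Angpt1, Angpt2 and Angpt4, the receptors Tek (Tie2) and Tie1, and Ptprb, which encodes the vascular endothelial protein tyrosine phosphatase VE-PTP. They were chosen by name, and each of the 6 matched 1 row of the 54752 Ensembl genes in the expression matrix. All mice were Prox1-eGFP knock-in animals, on C57BL/6 by the labels and C57BL/6J by the methods, in which an IRES-eGFP cassette follows the coding sequence of the endogenous Prox1 gene, so the LEC gate rests on the activity of the Prox1 locus. Osmotic minipumps delivered bovine serum albumin alone (ctrl), angiotensin II with albumin (angII) or angiotensin II with VEGFCc156s (angII+VEGFC), a form of VEGF-C that is selective for the lymphatic receptor VEGFR-3. Tissue was collected 5 to 6 weeks after implantation, and the mice were 8 to 16 months old by the labels, although the study's methods express age in weeks. Cardiac and diaphragmatic lymphatic endothelial cells (LECs) and cardiac blood endothelial cells (BECs) were sorted as CD45.2-negative, CD31-positive cells with or without eGFP, and cardiomyocytes were pelleted from digested hearts without a sort. Each population had 4 ctrl, 5 angII and 3 angII+VEGFC libraries, 48 in all from 13 mice. The labels give the libraries of 1 mouse the same animal number, and replicate 3 of the angII diaphragm LECs came from mouse 4 while the heart libraries of that replicate came from mouse 12.

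Angiopoietin 1 activates the receptor tyrosine kinase Tie2 and is made mainly by cells around the vessel, such as mural cells, and by cardiac muscle. Angiopoietin 2 is made by endothelial cells, is stored in Weibel-Palade bodies and acts as an antagonist or a weak agonist of Tie2 depending on the context. Angiopoietin 4 is the mouse counterpart of a further Tie2 agonist, and Tie1 forms complexes with Tie2 and modulates its signal. VE-PTP dephosphorylates Tie2 and associates with VE-cadherin. In lymphatic vessels, where VE-PTP is low, angiopoietin 2 can act as a Tie2 agonist, and it is needed for lymphatic remodelling.

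Expression was given as TPM, the length-corrected fraction of all transcripts in a library that comes from a gene. This puts different genes of a library on a common scale, apart from uneven coverage along a transcript, which TPM does not show. TPM keeps no read count, the depth of each library is unknown, and a lower value in a population can reflect fewer cells of a type or less RNA per cell, which cannot be told apart. Genes reaching 1 TPM numbered from 16131 to 24086 in the ctrl heart LECs and from 19957 to 25896 in the angII heart LECs. In the diaphragm LECs they numbered from 12924 to 18116 in ctrl and from 20062 to 23691 in angII, so these groups did not overlap. In angII+VEGFC they numbered from 16756 to 18884 in heart LECs and from 14963 to 18373 in diaphragm LECs. Both ranges lay below those of angII. Of the 48 libraries, 0 lay beyond 3 SD of their population along the leading principal components. The 7 lymphatic markers summed to 18170 to 32106 TPM in heart LECs and to 22654 to 43488 TPM in diaphragm LECs, against 216 to 708 TPM in heart BECs. In the cardiomyocyte preparation the 6 cardiomyocyte markers summed to 5735 to 16396 TPM, and the 4 markers of all endothelium to 235 to 385 TPM against 1426 to 2307 TPM in heart BECs, so this preparation also held endothelial RNA.

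**Figure D1:**
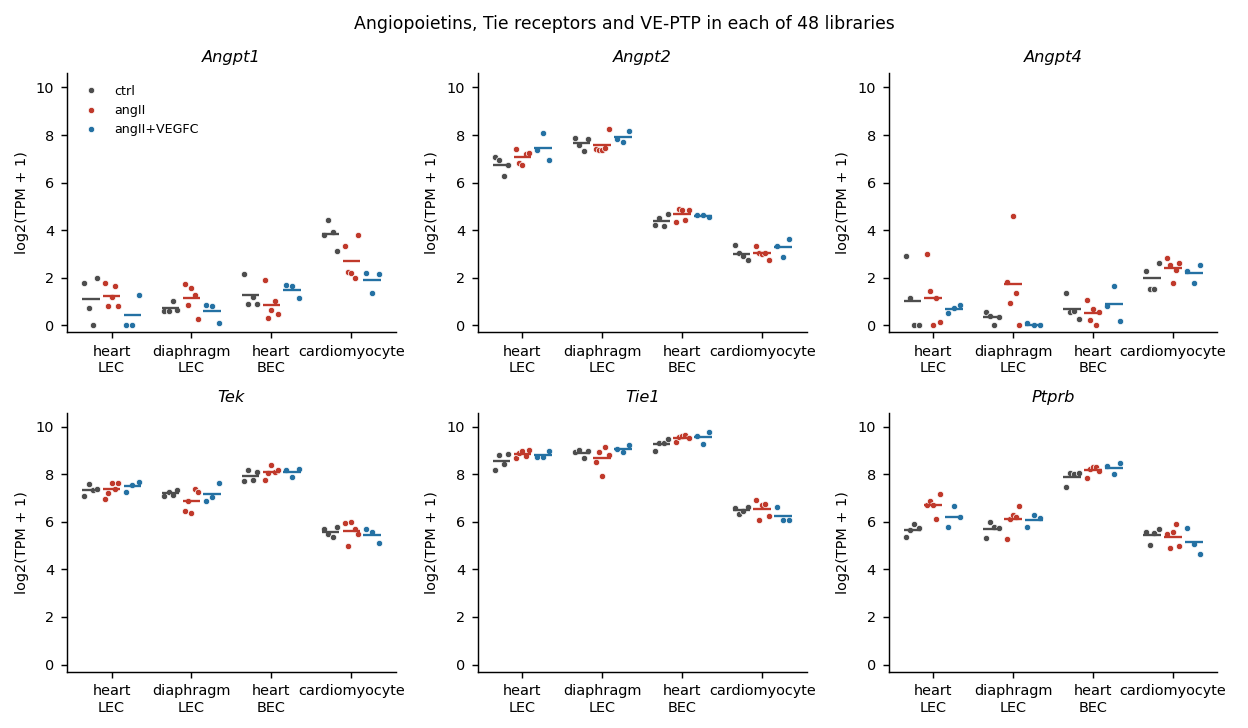
Expression of the 6 genes in each library, as log2(TPM + 1), by cell population on the horizontal axis and by treatment in colour (4 ctrl, 5 angII and 3 angII+VEGFC libraries per population). Each point is 1 library and each line a group mean. Angpt2 is highest in the LECs, Tek, Tie1 and Ptprb are highest in the heart BECs, and Angpt1 is highest in the ctrl cardiomyocyte libraries.

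Among the ligands, Angpt2 was the one with substantial expression in endothelium, and it was several times higher in LECs than in BECs. The gene lies on chromosome 8 at positions 18690263 to 18741562 of GRCm38, on the minus strand. Its level ranged from 158 to 304 TPM in the 12 diaphragm LEC libraries (median 197 TPM), from 76.4 to 274 TPM in the heart LECs (median 129 TPM), from 16.8 to 28.6 TPM in the heart BECs (median 23.1 TPM) and from 5.68 to 11.4 TPM in the cardiomyocytes (median 7.16 TPM). The heart LEC and diaphragm LEC libraries overlapped, and every library of both LEC populations lay above every heart BEC library, which in turn lay above every cardiomyocyte library. The ratio of the means was 6.12 between heart LECs and heart BECs and 9.12 between diaphragm LECs and heart BECs.

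Angpt1 was near the lower limit of measurement in all 3 endothelial populations and was expressed in the cardiomyocyte preparation. This gene lies on chromosome 15 at positions 42424723 to 42676977, on the minus strand. It was between 0 and 2.95 TPM in the heart LECs (median 1.02 TPM), between 0.0790 and 2.33 TPM in the diaphragm LECs (median 0.773 TPM) and between 0.219 and 3.49 TPM in the heart BECs (median 1.12 TPM), and it was listed at 0 in 3 heart LEC libraries. In the cardiomyocyte preparation it ranged from 1.54 to 20.8 TPM with a median of 5.78 TPM. The mean in cardiomyocytes was 5.67 times the mean in heart BECs, although the lowest cardiomyocyte libraries overlapped with the highest endothelial libraries.

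Angpt4, on chromosome 2 at positions 151911210 to 151945337 of the plus strand, had the lowest median of the 3 ligands in each population. Its median was 3.97 TPM in cardiomyocytes and below 1 TPM in endothelium (0.742 TPM in the heart LECs, 0.492 TPM in the heart BECs and 0.296 TPM in the diaphragm LECs). All 12 cardiomyocyte libraries were at 1 TPM or more (1.85 to 6.19 TPM), whereas 5 heart LEC, 3 diaphragm LEC and 3 heart BEC libraries were. A few LEC libraries stood far above the rest, with 23.3 TPM in replicate 3 of the angII diaphragm LECs, 6.92 TPM in replicate 1 of the angII heart LECs and 6.63 TPM in replicate 1 of the ctrl heart LECs. Those libraries had 23691, 25896 and 24086 genes at 1 TPM or more, the highest number of their group in each case, and the part of this in the Angpt4 values was not tested.

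The receptor genes Tek and Tie1 had their highest levels in heart BECs and were strongly expressed in LECs too. Tek lies on chromosome 4 at positions 94739289 to 94874976, on the plus strand, and Tie1 on the same chromosome at positions 118471191 to 118490061, on the minus strand. These receptors have the promoter sequences that follow, shown because their levels had the highest correlation over libraries of any pair of the 6 genes. The sequences are from RefSeq (GRCm38.p6) and run from 250 bases before to 50 bases after the annotated start, 5′ to 3′ on the strand of the gene, and capitals mark the core letters GGAAG of ETS factors or AGATAA of GATA factors on either strand. RefSeq promoters were matched for 3 of the 6 genes, Angpt4, Tek and Tie1.
Tek, chr4:94739039-94739338, plus strand: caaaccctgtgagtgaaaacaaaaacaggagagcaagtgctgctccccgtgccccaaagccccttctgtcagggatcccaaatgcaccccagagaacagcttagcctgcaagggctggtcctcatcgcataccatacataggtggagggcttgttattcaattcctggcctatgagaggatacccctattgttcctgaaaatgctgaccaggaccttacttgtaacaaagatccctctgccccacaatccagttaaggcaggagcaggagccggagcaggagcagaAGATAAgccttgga
Tie1, chr4:118489800-118490099, minus strand: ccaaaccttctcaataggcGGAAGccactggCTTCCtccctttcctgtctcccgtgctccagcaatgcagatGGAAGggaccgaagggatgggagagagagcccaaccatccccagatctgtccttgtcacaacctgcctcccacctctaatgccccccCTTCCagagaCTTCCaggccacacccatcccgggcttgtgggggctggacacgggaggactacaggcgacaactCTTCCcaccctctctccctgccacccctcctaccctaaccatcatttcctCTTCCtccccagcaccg

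The Tie1 window held 7 matches to GGAAG or its reverse complement and 0 to AGATAA. The RefSeq start of Tie1 differs from the gene start given above and lies inside the gene. Most of that window is thus within the gene positions given. The Tek window held 0 matches to GGAAG and 1 to AGATAA, which begins 37 bases after the start. Of 32851 RefSeq promoters of the same length, 71.4% held GGAAG and 11.2% held AGATAA on either strand, and 0.23% held 7 or more matches to GGAAG. A match of letters describes the window and is no evidence of binding.

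Tek ranged from 212 to 334 TPM in heart BECs (median 273 TPM), from 124 to 202 TPM in heart LECs (median 167 TPM), from 82.0 to 196 TPM in diaphragm LECs (median 137 TPM) and from 31.0 to 62.1 TPM in cardiomyocytes (median 48.3 TPM). Every heart BEC library was above every LEC library, and every LEC library above every cardiomyocyte library. Tie1 was the most abundant of the 6 genes in each of the 4 populations, with medians of 730 TPM in heart BECs, 488 TPM in diaphragm LECs, 443 TPM in heart LECs and 92.0 TPM in cardiomyocytes. Its heart BEC libraries (505 to 874 TPM) overlapped slightly with those of heart LECs (294 to 517 TPM) and of diaphragm LECs (243 to 599 TPM), and the cardiomyocyte libraries (65.7 to 119 TPM) lay below all of them.

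Ptprb separated BECs from LECs more clearly than either receptor. It lies on chromosome 10 at positions 116275523 to 116389535, on the plus strand. Its level ranged from 174 to 353 TPM in heart BECs (median 276 TPM), from 39.7 to 144 TPM in heart LECs (median 70.7 TPM), from 37.5 to 101 TPM in diaphragm LECs (median 66.0 TPM) and from 24.3 to 59.6 TPM in cardiomyocytes (median 44.8 TPM). The BEC libraries did not overlap with any other population, and the other 3 populations overlapped with each other. How many of all genes separated the populations without overlap was not counted, here or for Angpt2 and Tek.

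By mean level over all treatments, the order of the 4 populations was diaphragm LEC, heart LEC, heart BEC and cardiomyocyte for Angpt2. It was heart BEC, heart LEC, diaphragm LEC and cardiomyocyte for Tek and Ptprb. For Tie1 the 2 LEC populations stood in the opposite order to Tek and Ptprb, with mean levels within a factor of 1.08 of each other. In ctrl alone the mean of Ptprb was 50.3 TPM in heart LECs and 52.1 TPM in diaphragm LECs.

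The populations were compared with limma on log2(TPM + 1), averaged over the 3 treatments, with p-values adjusted over all genes tested, to ask how blood and lymphatic endothelium differ in this pathway. Between heart LECs and heart BECs, 4 of the 6 genes differed, where 17.6% of the 32754 genes tested were called (8.94% higher and 8.64% lower in heart LECs). Angpt2 was higher in heart LECs by 2.55 ± 0.14 on the log2 scale (± SE, adjusted p = 2.0e-16). Ptprb was lower in heart LECs (-1.91 ± 0.14, adjusted p = 8.6e-13), as were Tie1 (-0.71 ± 0.08, adjusted p = 5.2e-08) and Tek (-0.64 ± 0.11, adjusted p = 4.0e-05). The differences of Angpt1 (-0.29 ± 0.26) and Angpt4 (0.26 ± 0.34) were within about 1 SE of 0.

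Between diaphragm LECs and heart BECs the called genes were again Angpt2, Ptprb, Tek and Tie1, where 16.6% of all genes were called (7.54% higher and 9.01% lower in diaphragm LECs). Angpt2 was higher by 3.15 ± 0.14 (adjusted p = 3.7e-19), and Ptprb was lower by a similar margin as in heart LECs (-2.14 ± 0.14, adjusted p = 2.4e-14). Tek (-0.95 ± 0.11, adjusted p = 2.3e-08) and Tie1 (-0.57 ± 0.08, adjusted p = 2.4e-06) were lower too. Angpt1 did not pass, with differences of -0.51 to -0.33 when libraries were left out in turn. Angpt4 did not pass either, and its difference was smaller than its SE. In the ctrl libraries alone the Tie1 difference was -0.37 with an adjusted p of 0.070, with 4 libraries per population.

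Between the 2 lymphatic populations 4.56% of all genes were called (2.67% higher and 1.88% lower in heart LECs), and of the 6 genes Angpt2 was, with a lower level in the heart (-0.60 ± 0.14, adjusted p = 0.0049). The differences of Tek (0.31 ± 0.11, adjusted p = 0.12), Ptprb (0.23 ± 0.14) and Tie1 (-0.14 ± 0.08) did not pass. Those of Angpt1 and Angpt4 did not pass either and were smaller than their SE. Since libraries of 1 mouse share a number, the mouse was also fitted as a fixed block, and then 3 genes were called: Angpt2 (-0.61 ± 0.13, adjusted p = 0.0030), Tek (0.26 ± 0.07, adjusted p = 0.030) and Tie1 (-0.20 ± 0.06, adjusted p = 0.047). With the mouse as a random block Angpt2 remained the 1 call, and Tek was at 0.30 ± 0.10 (adjusted p = 0.071). Without replicate 3 of the angII+VEGFC diaphragm LECs, Tek was called in the unblocked fit as well (0.38 ± 0.11, adjusted p = 0.045).

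Cardiomyocyte libraries were compared with heart BECs with age as the covariate, since all of them were sequenced in a batch of their own, and the batch and the population cannot be told apart. All 6 genes differed, in a comparison where 74.8% of the 23213 genes tested were called (10.8% higher and 64.1% lower in cardiomyocytes) and where the median difference of all genes was -0.61. Angpt1 (1.59 ± 0.23, adjusted p = 1.1e-06) and Angpt4 (1.51 ± 0.20, adjusted p = 2.8e-07) were higher in cardiomyocytes. Lower levels were found for Tie1 (-3.02 ± 0.10), Ptprb (-2.78 ± 0.12), Tek (-2.49 ± 0.11) and Angpt2 (-1.45 ± 0.11), with adjusted p-values of 5.4e-11 or less. After quantile normalization, which brings the median of all genes to -0.14, the Angpt2 difference was -0.68, and with a pseudocount of 0.1 TPM the Angpt4 difference was 2.62. In the ctrl libraries alone Angpt1 differed by 2.54. Markers of other cells moved with this contrast: the fibroblast markers summed to 2413 to 6502 TPM in the cardiomyocyte preparation and 467 to 4048 TPM in heart BECs, and the mural cell markers to 777 to 1525 TPM and 145 to 414 TPM. Their part in the Angpt1 and Angpt4 levels was not tested.

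**Figure D2:**
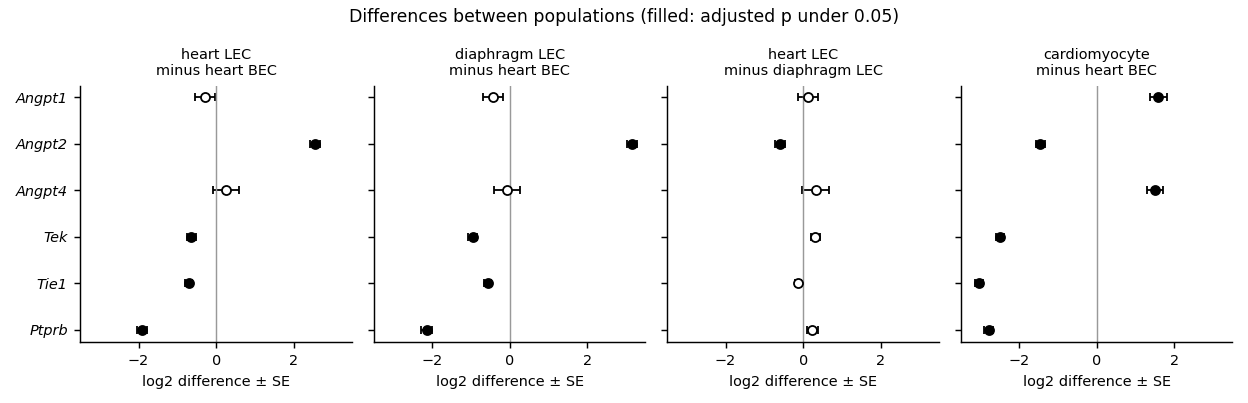
Differences between populations in log2(TPM + 1) for the 6 genes, averaged over treatments, with standard errors from limma. Filled points have an adjusted p under 0.05. Angpt2 lies at 2.55 and 3.15 in the LECs against heart BECs, while Ptprb lies at -1.91 and -2.14.

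Ratios of TPM + 1 within a library do not move with the library total, and they were compared within mice by exact sign-flip permutation tests (two-sided), with 64 tests of ratios adjusted together, of which 11 of the 16 between populations passed. The ratio of Angpt2 to Tek had its highest median, 1.52, in diaphragm LECs, followed by 0.758 in heart LECs, 0.175 in cardiomyocytes and 0.0873 in heart BECs. It was higher in the heart LECs than in the heart BECs of all 12 mice, by 3.16 on the log2 scale (SD of the differences 0.48, adjusted exact p = 0.0069). In the 11 mice with both LEC populations it was lower in the heart by a log2 difference of -0.86 (SD 0.42, adjusted exact p = 0.0069). In cardiomyocytes the ratio exceeded that of the heart BECs by 1.00 in all 12 mice, although Angpt2 itself was lower there.

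The ratio of Ptprb to Tek had medians of 1.08 in heart BECs, 0.839 in cardiomyocytes, 0.440 in diaphragm LECs and 0.391 in heart LECs. In TPM the phosphatase gene was thus close to Tek in BECs and below it in LECs. The longest consensus coding transcript has 11911 bases for Ptprb and 4654 for Tek, and uneven coverage of either was not tested. The log2 ratio was lower in heart LECs than in heart BECs of all 12 mice (-1.21, SD 0.55, adjusted exact p = 0.0069). In cardiomyocytes it was lower than in heart BECs in 10 of 12 mice (-0.28, adjusted exact p = 0.040), a call that was kept without mouse 1 or mouse 18 and lost without any other single mouse. Between the LEC populations the difference was 0.01 (SD 0.41, n = 11 mice, adjusted exact p = 0.98). The ratio of Tie1 to Tek had medians of 2.57 in heart LECs and 2.68 in heart BECs, which differed by -0.05 (SD 0.19, adjusted exact p = 0.68), and of 3.36 in diaphragm LECs. In all 11 mice it was higher in diaphragm LECs than in heart BECs (0.38, SD 0.24) and than in heart LECs, with an adjusted exact p of 0.0069 for each, which is the smallest adjusted value reached. The cardiomyocyte preparation had the lowest ratio of Tie1 to Tek, with a median of 1.90, below the heart BECs of all 12 mice.

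Set against the mean log2 level of the endothelial genes Pecam1, Cdh5 and Emcn, Tek was similar in the 4 populations, with median ratios between 0.513 (heart BECs) and 0.626 (diaphragm LECs). The difference passed between cardiomyocytes and heart BECs (0.22, SD 0.20, 12 mice, adjusted exact p = 0.019). For heart LECs (0.18, adjusted exact p = 0.080) and diaphragm LECs (0.23, adjusted exact p = 0.078) against heart BECs it did not, although it did without mouse 15 for the former (0.21) and without mouse 2 for the latter (0.27).

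**Figure D3:**
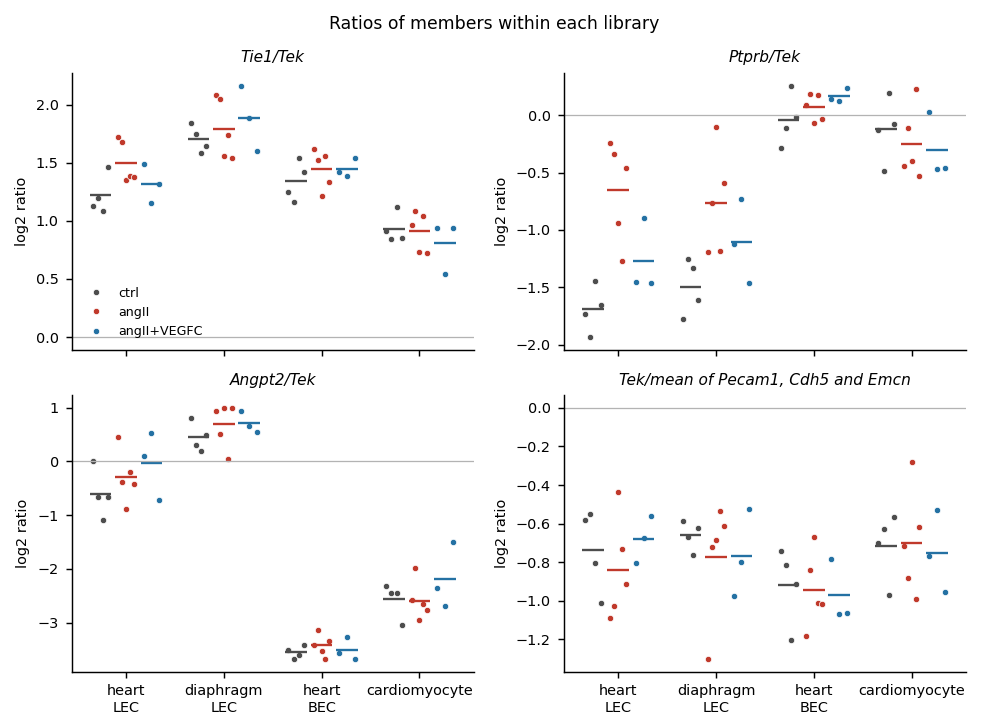
Log2 ratios of (TPM + 1) within each of the 48 libraries, for Tie1, Ptprb and Angpt2 over Tek and for Tek over the mean log2 level of Pecam1, Cdh5 and Emcn. Points are libraries, coloured by treatment, and lines are group means. The Angpt2 to Tek ratio separates both LEC populations from heart BECs without overlap, and the vertical scales differ between panels.

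The genes with the most similar pattern were found by Pearson's r of log2(TPM + 1) over the 48 libraries, which reflect the 4 populations and share library effects. Angpt2 was most like Arl4a (0.984), the VEGF-C receptor gene Flt4 (0.979) and Nts (0.979). Tek was most like Pecam1 (0.979), Cav1 (0.976) and Fmo1 (0.970), and Tie1 was most like Cav2 (0.987), Mmrn2 (0.984) and Gimap6 (0.983). For Ptprb the closest genes were Adgrl4 (0.956), Arhgef15 (0.954) and Xdh (0.949), for Angpt1 they were Acaa2 (0.873), Fndc5 (0.862) and Mylk3 (0.860), and for Angpt4 Cdh2 (0.812), Mlip (0.759) and Clip4 (0.739). Among the 6 genes Tek and Tie1 had the highest r (0.962). Over the 36 endothelial libraries with the mean of each population and treatment subtracted, r was 0.756 between Tek and Tie1. There the closest gene was Stard8 for Tek (0.847), Elovl5 for Tie1 (0.879) and Sgk1 for Angpt2 (0.758). It was Ifih1 for Ptprb (0.723), Matn2 for Angpt1 (0.839) and Cdh2 for Angpt4 (0.805).

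The treatments were compared within each population to ask whether angiotensin II, or VEGFCc156s given with it, changed the pathway. The groups hold different mice, and each contrast was adjusted for age and, in the endothelial cells, sequencing batch. The contrast of angII+VEGFC with ctrl shares its libraries with the other contrasts. In the heart LECs 0 of the 6 genes passed in any contrast. The test called 0.0261% of the 26803 genes in angII against ctrl, and 0 in both contrasts of angII+VEGFC, where 2906 genes against angII and 1325 against ctrl had an unadjusted p under 0.05.

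Ptprb showed the largest difference of the 6 genes between angII and ctrl heart LECs. In ctrl it was at 39.7, 50.1, 59.2 and 52.0 TPM, in angII at 105, 115, 103, 68.7 and 144 TPM, and in angII+VEGFC at 54.7, 101 and 72.6 TPM. All 5 angII libraries lay above all 4 ctrl libraries, where 2.13% of all genes were higher without overlap, and the angII+VEGFC libraries overlapped with both. The log2 difference was 1.03 ± 0.24 in angII against ctrl (limma, adjusted p = 0.17), with 1.24 within sequencing batch 1 and 0.79 within batch 2, and the median difference of all genes was 0.23. In angII+VEGFC it was 0.59 ± 0.28 against ctrl (adjusted p = 0.91) and -0.44 ± 0.29 against angII (adjusted p = 0.57). The last value was -0.17 without angII+VEGFC replicate 1 and -1.06 with the number of expressed genes as a covariate. The ratio of Ptprb to Tek differed by 1.04 between angII and ctrl heart LECs (exact permutation p = 0.016, adjusted p = 0.078) and by 0.73 between angII and ctrl diaphragm LECs (exact permutation p = 0.032, adjusted p = 0.14). In both LEC populations the ratios of all 5 angII libraries lay above those of all 4 ctrl libraries. Of the 48 ratio tests between treatments 0 passed. In the contrasts of angII+VEGFC the few libraries set a floor to the exact p. After the joint adjustment such a p could pass only if many other tests had p-values as small. The tests of those contrasts thus could not decide whether the ratios differ.

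Markers of blood endothelium were also higher in angII than in ctrl heart LECs. The 7 markers, Flt1, Nrp1, Aqp1, Cd36, Rgcc, Sox17 and Nos3, summed to 1142, 855, 1208 and 1176 TPM in ctrl, to 2266, 3261, 1338, 1530 and 3567 TPM in angII and to 1278, 992 and 1111 TPM in angII+VEGFC. The angII sums were all above the ctrl sums, and the library with the highest sum, replicate 5, also had the highest Ptprb level. Some libraries did not pair in this way. Replicate 3 of angII had the lowest angII sum and Ptprb at 103 TPM. Replicate 2 of angII+VEGFC had a sum of 992 TPM and Ptprb at 101 TPM. Over all treatments the same 7 markers summed to 6601 to 11694 TPM in heart BECs and to 411 to 963 TPM in diaphragm LECs. All 7 had a positive log2 difference in angII, with 0 called, from 0.12 ± 0.26 for Nos3 to 3.14 ± 0.77 for Sox17, and 0 of them had a median of 0 TPM in heart LECs. The 8 mural cell markers, 0 called, were also all positive, with sums of 45.7 to 323 TPM in ctrl and 111 to 674 TPM in angII. The 6 cardiomyocyte markers, 0 called, were all positive too, with sums of 102 to 323 TPM in ctrl (median 142 TPM) and 140 to 762 TPM in angII (median 527 TPM). Of the 7 fibroblast markers 5 were positive and Col1a2 was called (2.84 ± 0.42, adjusted p = 0.029), and their sums overlapped (868 to 1402 TPM and 745 to 1779 TPM). In the same order the lymphatic markers summed to 22832 to 32106 TPM and 18170 to 25465 TPM. The part of these shifts in the Ptprb difference was not tested.

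Angpt2 in heart LECs was at 135, 123, 76.4 and 104 TPM in ctrl, at 170, 111, 106, 146 and 149 TPM in angII and at 163, 274 and 123 TPM in angII+VEGFC. The groups overlapped, the log2 difference was 0.37 ± 0.23 in angII against ctrl (adjusted p = 0.58) and 0.64 ± 0.27 in angII+VEGFC against ctrl (adjusted p = 0.91), and the highest value was that of replicate 2 of angII+VEGFC. Within the sequencing batches, the difference between angII+VEGFC and ctrl was 1.42 in batch 1, with 1 angII+VEGFC library, and 0.32 in batch 2. Between angII+VEGFC and angII Angpt2 lay within 1 SE of 0.

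Tie1 in heart LECs differed by 0.30 ± 0.16 in angII (adjusted p = 0.51) and by 0.22 ± 0.19 in angII+VEGFC against ctrl, and it lay within 1 SE of 0 between the 2 infused groups, as did Tek in all 3 contrasts. Angpt1 and Angpt4 lay within 1 SE of 0 in angII against ctrl. Between angII+VEGFC and angII they differed by -1.15 ± 0.63 (adjusted p = 0.51) and -1.20 ± 0.68 (adjusted p = 0.52), and between angII+VEGFC and ctrl by -0.89 ± 0.62 and -0.76 ± 0.66. These values rest on levels near 1 TPM.

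In the diaphragm LECs, 0 of the 6 genes and 0 of the 23839 genes tested passed in any of the 3 contrasts with limma, with 314 to 3651 genes at an unadjusted p under 0.05. Angpt2 was at 236, 189, 158 and 227 TPM in ctrl, at 167, 166, 164, 172 and 304 TPM in angII and at 228, 206 and 288 TPM in angII+VEGFC. The angII libraries except replicate 5 lay close together near the lower end of the ctrl range, and the log2 difference between angII and ctrl was within 1 SE of 0. In angII+VEGFC Angpt2 differed by 0.35 ± 0.24 from angII and by 0.26 ± 0.25 from ctrl.

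For Ptprb the difference in diaphragm LECs was 0.41 ± 0.26 in angII and 0.40 ± 0.31 in angII+VEGFC against ctrl, and within 1 SE of 0 between the infused groups. Tek (-0.30 ± 0.21) and Tie1 (-0.21 ± 0.17) did not pass in angII against ctrl, and both turned positive, to 0.23 and 0.12, with the number of expressed genes as a covariate. Against angII, the angII+VEGFC libraries differed by 0.28 ± 0.24 for Tek and 0.35 ± 0.20 for Tie1, and against ctrl both genes lay within 1 SE of 0. Angpt1 differed by -0.51 ± 0.50 between angII+VEGFC and angII and lay within 1 SE of 0 in the other contrasts. Angpt4 differed by 1.38 ± 0.65 in angII against ctrl (adjusted p = 0.33) and lay within 1 SE of 0 in angII+VEGFC against ctrl. Angpt4 differed by -1.94 ± 0.76 between angII+VEGFC and angII (adjusted p = 0.57), a value that includes the single library at 23.3 TPM and moved to -4.45 with a pseudocount of 0.1 TPM, to -0.89 with 1 surrogate variable and to -0.27 with the number of expressed genes as a covariate. Without that library Angpt4 no longer passed the filter on low values.

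In the heart BECs, 0 of the 6 genes and 0 of the 21281 genes tested passed in any contrast with limma (551 to 1172 genes at an unadjusted p under 0.05), and the differences of the receptor and phosphatase genes were small. Tie1 was at 505, 646, 632 and 726 TPM in ctrl, at 663, 755, 776, 814 and 733 TPM in angII and at 781, 622 and 874 TPM in angII+VEGFC. The groups overlapped, with log2 differences of 0.26 ± 0.11 in angII against ctrl and 0.27 ± 0.12 in angII+VEGFC against ctrl (adjusted p = 0.90 for both). The within-batch differences of Tie1 between angII and ctrl were 0.35 and 0.19. Ptprb differed by 0.25 ± 0.12 in angII and by 0.39 ± 0.14 in angII+VEGFC against ctrl (adjusted p = 0.86), and the ctrl replicate of mouse 1, at 174 TPM, stood below the other ctrl libraries (259 to 268 TPM). Angpt2 ranged from 16.8 to 24.4 TPM in ctrl, from 19.2 to 28.6 TPM in angII and from 22.6 to 23.7 TPM in angII+VEGFC, with differences from ctrl of 0.28 ± 0.17 and 0.23 ± 0.19. Tek differed from ctrl by 0.15 ± 0.13 in angII and 0.17 ± 0.16 in angII+VEGFC. Angpt1 differed by -0.41 ± 0.36 in angII against ctrl and by 0.59 ± 0.43 in angII+VEGFC against angII, and Angpt4 by 0.44 ± 0.33 in the latter contrast. All remaining differences in heart BECs, among them those of Angpt2, Tek, Tie1 and Ptprb between the infused groups, lay within 1 SE of 0.

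In the cardiomyocyte preparation Angpt1, the Tie2 agonist, was lower in angII+VEGFC than in ctrl, and this was the 1 treatment difference among the 6 genes that passed. Angpt1 was at 13.1, 20.8, 14.0 and 7.83 TPM in ctrl, at 9.09, 3.73, 3.60, 2.96 and 12.8 TPM in angII and at 3.60, 1.54 and 3.41 TPM in angII+VEGFC. All 3 angII+VEGFC libraries lay below all 4 ctrl libraries, where 4.78% of the 15691 genes tested were lower without overlap, and the angII libraries spanned the range between. The log2 difference between angII+VEGFC and ctrl was -2.06 ± 0.41 (limma, adjusted p = 0.039), in a contrast where 0.663% of all genes were called. Angpt1 differed by -1.03 ± 0.36 in angII against ctrl (limma, adjusted p = 0.32, where 0.0892% of all genes were called) and by -1.04 ± 0.41 in angII+VEGFC against angII (adjusted p = 1.0, with 0% called and 378 genes at an unadjusted p under 0.05).

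The Angpt1 call was close to the threshold. It stood with a pseudocount of 0.1 TPM, quantile normalization, no covariates, 1 surrogate variable added after seeing the data and the number of expressed genes as a covariate, and it was lost without the filter on low values (adjusted p = 0.19) and in a fit of only the 2 groups compared (adjusted p = 0.058). Leaving out 1 library at a time kept it in 3 of 12 fits, those without angII replicates 4 or 5 or without angII+VEGFC replicate 3. It was lost without any of the 4 ctrl replicates (adjusted p = 0.082, 0.19, 0.10 and 0.065 without replicates 1 to 4), without angII replicates 1, 2 or 3 (0.062, 0.054 and 0.055) and without angII+VEGFC replicates 1 or 2 (0.13 and 0.16), with log2 differences of -2.55 to -1.72 throughout.

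Fibroblast and leukocyte marker sums had higher medians in both infused groups than in ctrl cardiomyocyte libraries, whereas Angpt1 had lower ones. The 7 fibroblast markers summed to 3497, 2846, 2413 and 2772 TPM in ctrl, to 5508, 4078, 3965, 5481 and 5595 TPM in angII and to 6154, 6502 and 3346 TPM in angII+VEGFC. The 7 leukocyte markers summed to 415 to 548 TPM in ctrl, 580 to 1257 TPM in angII and 627 to 1333 TPM in angII+VEGFC. Of the 7 fibroblast markers all had a positive log2 difference between angII+VEGFC and ctrl, with 0 called, and the 6 cardiomyocyte markers had a median difference of -0.10. The cardiomyocyte marker sums overlapped between ctrl (8548 to 11836 TPM) and angII+VEGFC (5735 to 11170 TPM). Mural cell marker sums overlapped too (777 to 1372 TPM and 870 to 1525 TPM). The lymphatic marker sums overlapped as well (101 to 198 TPM and 97.5 to 200 TPM). Of that list Prox1 was called, with a lower level in angII+VEGFC than in ctrl (-1.45 ± 0.27, limma, adjusted p = 0.032). The part of these shifts in the Angpt1 difference was not tested.

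**Figure D4:**
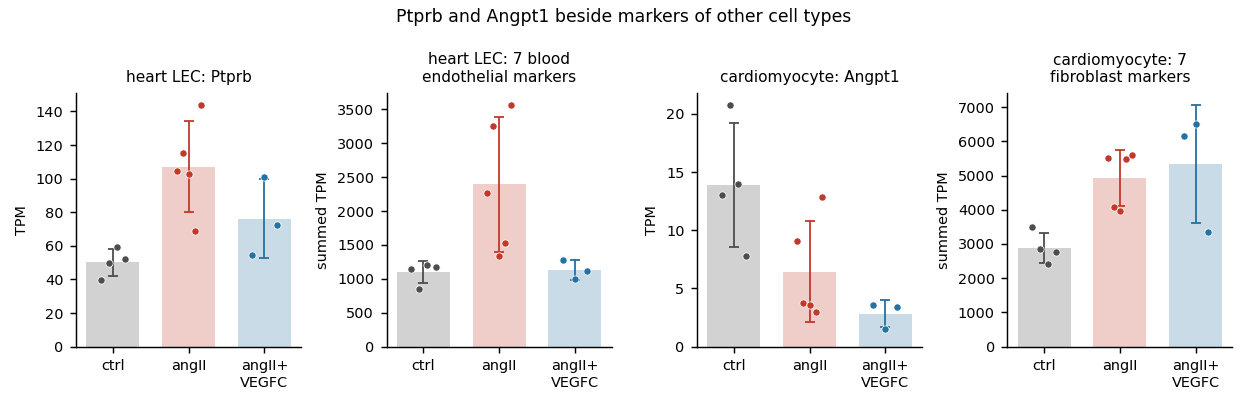
Ptprb in heart LECs beside the summed TPM of 7 blood endothelial markers, and Angpt1 in cardiomyocytes beside the summed TPM of 7 fibroblast markers, by treatment. Points are libraries, bars are means from 0 and whiskers are SD (n = 4 ctrl, 5 angII and 3 angII+VEGFC). The angII heart LECs lie above ctrl in both left panels, and Angpt1 ranges from 7.83 to 20.8 TPM in ctrl and from 1.54 to 3.60 TPM in angII+VEGFC.

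The other 5 genes had small differences in the cardiomyocyte preparation. Angpt4 differed by 0.45 ± 0.29 in angII against ctrl (adjusted p = 0.67), and in all other cases Angpt2, Angpt4, Tek, Tie1 and Ptprb lay within 1 SE of 0 in the 3 contrasts.

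**Figure D5:**
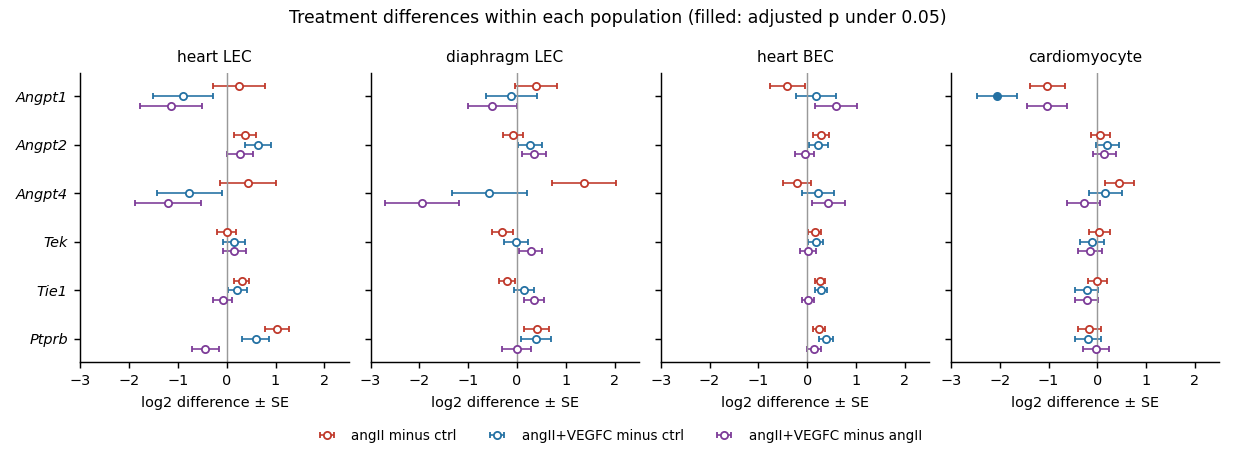
Treatment differences in log2(TPM + 1) of the 6 genes within each population, with standard errors from limma. Filled points have an adjusted p under 0.05, which holds for Angpt1 in cardiomyocytes between angII+VEGFC and ctrl (-2.06). In heart LECs the open point of Ptprb in angII against ctrl lies at 1.03.

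Whether the treatments acted differently in the 3 endothelial populations was tested by interaction contrasts in the fit of the 36 endothelial libraries. For angII against ctrl 0.00611% of all genes passed between heart and diaphragm LECs and 0% between either and heart BECs, and for angII+VEGFC against angII 0% passed in all 3 pairs. Of the 6 genes 0 passed in any of the 6 contrasts. The response of Ptprb to angII was higher in heart LECs than in heart BECs by 0.78 ± 0.32 (limma, adjusted p = 0.64), and that of Tie1 was higher in heart than in diaphragm LECs by 0.51 ± 0.19 (adjusted p = 0.42). The estimates of largest size were those of the weakly expressed ligands: for angII+VEGFC against angII, Angpt4 differed by -1.88 ± 0.84 between diaphragm LECs and heart BECs (adjusted p = 0.71), and Angpt1 by -1.46 ± 0.63 between heart LECs and heart BECs (adjusted p = 0.77) and by -1.11 ± 0.64 between diaphragm LECs and heart BECs. Angpt4 differed by 1.07 ± 0.84 between the LEC populations in that response, and in the response to angII by 1.40 ± 0.77 between diaphragm LECs and heart BECs and by -1.08 ± 0.77 between heart and diaphragm LECs.

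The other interaction estimates were smaller. In the response to angII, diaphragm LECs differed from heart BECs by 0.78 ± 0.59 for Angpt1, -0.39 ± 0.31 for Angpt2, -0.46 ± 0.25 for Tek and -0.48 ± 0.19 for Tie1. In the same response heart LECs differed from diaphragm LECs by 0.63 ± 0.32 for Ptprb, 0.42 ± 0.31 for Angpt2 and 0.31 ± 0.25 for Tek. In the response to angII+VEGFC against angII, Angpt2 was higher in both LEC populations than in heart BECs by 0.46 ± 0.33 (heart) and 0.42 ± 0.34 (diaphragm). For Ptprb it was -0.60 ± 0.35 between heart LECs and heart BECs and -0.44 ± 0.35 between heart and diaphragm LECs, and for Tie1 0.37 ± 0.21 between diaphragm LECs and heart BECs and -0.43 ± 0.21 between heart and diaphragm LECs. All remaining estimates of the 6 genes lay within 1 SE of 0. In the contrasts with 0 calls, 1600 to 3616 genes had an unadjusted p under 0.05.

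Other genes of the pathway were read from 8 lists with 64 genes. Between heart LECs and heart BECs 13 of the 62 listed genes tested were higher and 25 lower, where 8.94% and 8.64% of all genes were. Between diaphragm LECs and heart BECs 7 were higher and 22 lower (7.54% and 9.01% of all genes), and between heart and diaphragm LECs 9 were higher and 4 lower in the heart (2.67% and 1.88%). Of 61 listed genes tested between cardiomyocytes and heart BECs, 12 were higher and 41 lower, against the 10.8% and 64.1% of all genes given for that contrast.

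Of the 20 genes of Tie signalling, 3 were higher and 6 lower in heart LECs than in BECs, where 8.94% and 8.64% of all genes were, with a median of -0.25 against 0.15 for all genes. The adaptor gene Grb7 was higher in heart LECs by 2.97 ± 0.28, and Shc1, another adaptor that binds Tie2, was higher in diaphragm LECs than in BECs by 2.39 ± 0.11. In cardiomyocytes the adaptor gene Grb14 was higher (3.20 ± 0.17) and Nos3, the endothelial nitric oxide synthase, was lower (-2.73 ± 0.09) than in BECs.

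Of the 5 partners of VE-PTP at endothelial junctions, all 5 were lower in heart LECs than in BECs, where 8.64% of all genes were (median -0.51 against 0.15 for all genes), and 4 in diaphragm LECs, where 9.01% were. In cardiomyocytes all 5 were lower, in a contrast where 64.1% of all genes were (median -2.03 against -0.61), among them Kdr (VEGFR-2, -2.91 ± 0.14), Cdh5 (VE-cadherin, -2.88 ± 0.12), Jup (plakoglobin, -2.03 ± 0.10) and Ctnnb1 (β-catenin, -1.76 ± 0.09). Of the 4 receptor phosphatases related to VE-PTP 2 were tested, and Ptprj was higher in heart LECs than in BECs (1.42 ± 0.26, adjusted p = 9.9e-05) while Ptpro was higher in cardiomyocytes (1.43 ± 0.18).

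Among the 6 genes of Weibel-Palade bodies, the storage granules of angiopoietin 2, 1 was higher and 3 were lower in heart LECs than in BECs, and 1 was higher and 2 lower in diaphragm LECs, where higher and lower calls made up 8.94% and 8.64% of all genes for the heart and 7.54% and 9.01% for the diaphragm. The von Willebrand factor gene Vwf was lower in diaphragm LECs by -3.68 ± 0.25 and the granule membrane gene Cd63 was higher by 2.42 ± 0.17, while Selp (P-selectin, -2.73 ± 0.26) and Rab27a (-2.16 ± 0.12) were lower in cardiomyocytes. Between diaphragm LECs and BECs Angpt2 thus differed in the direction of Cd63 and against that of Vwf.

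Of the 9 transcription factor genes linked to the family, 2 were higher and 4 lower in heart LECs, where 8.94% and 8.64% of all genes were, and 1 was higher and 6 lower in diaphragm LECs, where 7.54% and 9.01% were. All 9 were lower in cardiomyocytes, as were 64.1% of all genes. Foxc2, a regulator of lymphatic valves, was higher in heart LECs than in BECs (3.16 ± 0.19), and Gata2 (-2.53 ± 0.09), Ets1 (-2.43 ± 0.11) and Klf2 (-2.31 ± 0.22) were lower in cardiomyocytes. Of the 7 targets of the FOXO factors that Tie2 signalling restrains, 2 were higher and 3 lower in heart LECs (8.94% and 8.64% of all genes) and 3 lower in diaphragm LECs (9.01%), including Pik3ip1 (-2.48 ± 0.31) and Ccng2 (-1.64 ± 0.18) in the diaphragm. Cited2 (-1.65 ± 0.20) and Cdkn1b (-1.09 ± 0.08) were lower in cardiomyocytes, where 5 of the 7 were, a share near the 64.1% of all genes.

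Among 7 further ligands, coreceptors and sheddases, 3 were higher and 3 lower in heart LECs (8.94% and 8.64% of all genes), and 3 higher and 2 lower in diaphragm LECs (7.54% and 9.01%). The protease gene Mmp14 (2.52 ± 0.21) and the integrin gene Itgb3 (2.46 ± 0.21) were higher in diaphragm LECs than in BECs, and the sheddase gene Adam17 was lower in cardiomyocytes (-1.62 ± 0.11). Of the 6 angiopoietin-like genes 3 were higher in cardiomyocytes than in BECs, as were 10.8% of all genes, namely Angptl7 (4.83 ± 0.29), Angptl2 (1.59 ± 0.25) and Angptl1 (1.25 ± 0.23), and Angptl4 was lower in diaphragm LECs (-1.37 ± 0.41, adjusted p = 0.015). In the ctrl libraries alone, the Angptl1, Angptl4 and Ptprj differences did not pass (0.55, -0.56 and 1.39), and Angptl4 was also lost without replicate 2 of the angII+VEGFC heart BECs (-1.15).

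In the treatment contrasts 1 of the listed genes passed. Svep1, which encodes a matrix protein that binds Tie1, was higher in the cardiomyocyte preparation of angII+VEGFC mice (3.92, 5.20 and 6.34 TPM) than of ctrl mice (0.925 to 2.24 TPM), by 1.45 ± 0.26 (limma, adjusted p = 0.031). In this contrast, the same as for Angpt1, 0.663% of all genes were called. The part of the fibroblast marker shift, given above for this preparation, in the Svep1 difference was not tested. The Svep1 call was also lost without the filter on low values and in the fit of only the 2 groups, and without any 1 of the ctrl replicates, angII replicate 1 or angII+VEGFC replicates 1 or 2 (adjusted p = 0.051 to 0.18, with differences of 1.36 to 1.53).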

How the data were processed

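RNA of 48 libraries (4 populations, 3 treatments) was converted to cDNA with a Smart-Seq ultra low input kit. The authors aligned the reads to GRCm38 with STAR 2.5.3a, quantified Ensembl 95 genes with Salmon 0.12.0 and deposited 1 matrix of TPM values, which holds no counts, so count models were not used and limma replaced the DESeq2 test of the study. Groups, mouse numbers, ages and sequencing batchs were taken from the labels. Genes that reached 1 TPM in 3 or more of the libraries fitted were analysed as log2(TPM + 1) with limma 3.58.1 (variance trend, R 4.3.3), with age and sequencing batch as covariates, and age alone where cardiomyocytes enter. P-values were adjusted by Benjamini-Hochberg over all genes, with a threshold of 0.05. Fold changes on this scale understate changes of genes near 1 TPM. Ratios were compared by exact permutation tests in Python 3.11.15. The members, gene lists and tests were chosen with earlier results of these data known. All 6 genes are named in every limma comparison. Those within 1 SE of 0 have no value in treatment contrasts and in population contrasts with diaphragm LECs. This limit was set after seeing the data. Of each pathway list at most 4 genes are named, those with the largest absolute log2 difference among its calls.

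The libraries of 1 mouse share a label number, which pairs the populations, and the mean correlation of their deviations from the group means was 0.065 over 34 pairs of the same mouse and -0.019 over 116 pairs of different mice. Alternatives were another pseudocount, no filter, quantile normalization, no covariates, 1 surrogate variable (wsva of limma, chosen after seeing the data), the number of expressed genes as a covariate, a fit of the 2 groups alone, the mouse as a block, the ctrl libraries alone and each library left out. The code was tested on simulated data. Coordinates are those of GENCODE release 21 for mouse, on GRCm38.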

Additional observations from a re-analysis of the deposited data

Results flagged for a closer look

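In 6 of the 48 groups of 4 or 5 libraries, 1 library stood apart from the rest of its group by Dixon's criterion, which chance alone meets in about 1 of 20 groups. Groups of 3 were not examined. Angpt1 was at 3.49 TPM in the ctrl heart BECs of mouse 1, where the other 3 libraries lay between 0.860 and 1.29 TPM, and at 1.03 TPM in the ctrl diaphragm LECs of mouse 9, where the others lay between 0.531 and 0.543 TPM. Ptprb was at 174 TPM in the same ctrl heart BEC library of mouse 1, below the other ctrl libraries (259 to 268 TPM). Angpt2 was at 304 TPM in the angII diaphragm LECs of mouse 14, where the others lay between 164 and 172 TPM. Angpt4 was at 6.92 TPM in the angII heart LECs of mouse 3, with 1.69 TPM as the next value, and at 23.3 TPM in the angII diaphragm LECs of mouse 4, with 2.57 TPM as the next value.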

How the results depend on the processing

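Depth cannot be read from TPM, so values near 1 TPM, as for Angpt1 and Angpt4 in endothelium, carry an unknown counting error. Between heart LECs and heart BECs, diaphragm LECs and heart BECs, and cardiomyocytes and heart BECs, the number of the 6 genes called stayed within 1.5 times under every alternative. Between the 2 LEC populations it was 1, and 3 with the mouse as a fixed replicate block, and 1 to 2 when libraries were left out in turn. No other call of the 6 genes changed with the block. In cardiomyocytes the number of genes that differed between angII+VEGFC and ctrl was 1, and 0 without a filter on low values, 0 in a fit of only the 2 groups compared (fewer libraries) and 0 to 1 when libraries were left out. All other treatment and interaction counts were 0 under each alternative.

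Small differences changed sign. Between diaphragm LECs and heart BECs Angpt4 was at 0.0093 without covariates and at -0.25 to 0.083 when libraries were left out in turn. Between heart and diaphragm LECs Angpt1 was at -0.12 with a pseudocount of 0.1 TPM, -0.18 after quantile normalization and -0.0046 to 0.25 when libraries were left out in turn, and Ptprb was at -0.043 in the ctrl libraries alone. Among treatment differences, the number of expressed genes as a covariate brought Angpt1 to 0.00098 and Angpt4 to 0.35 between angII+VEGFC and angII heart LECs. In diaphragm LECs it brought Angpt4 to -0.60, Tek to 0.23 and Tie1 to 0.12 in angII against ctrl, and Angpt1 to 0.19 and Tek to -0.17 in angII+VEGFC against angII. Tie1 in angII against ctrl diaphragm LECs was also at 0.027 with 1 surrogate variable and at 0.030 within batch 2. Within batch 2, Tie1 was at -0.0019 in angII and Angpt4 at 0.12 in angII+VEGFC against ctrl heart LECs, and Tek at -0.053 in angII against ctrl heart BECs. Treatment and interaction differences within 1 SE of 0 were given no direction and are not listed. The cause was not tested. The surrogate variable planned with the package sva was not run, and that of limma took its place.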
